A study of Mus musculus with 4 samples.

Results

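The interleukin 1 family was followed through 10 genes, chosen by name out of the 25149 genes in the deposited tables, across 4 kinds of liver cell that could make or receive its signals. They are the ligands Il1a, Il1b, Il18 and Il33, the soluble inhibitors Il1rn and Il18bp, and the receptor genes Il1r1, Il1rap, Il1r2 and Il1rl1. The cells were nonparenchymal liver cells, the fraction left after hepatocytes had been removed by slow centrifugation, profiled by single-cell RNA sequencing. In the CCl4 group, 2 wild-type male mice received carbon tetrachloride, a solvent that injures hepatocytes and leads to fibrosis, as a mixture of 1 volume with 9 volumes of corn oil, dosed by body weight at 10 µl per g. In the corn oil group, 2 wild-type male mice received the vehicle. All 4 mice were aged 8 to 10 weeks, had 5 weeks of intraperitoneal injections at 2 per week, and were sampled 48 hours after the final one.

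IL-1α and IL-1β both signal through IL-1 receptor 1 (Il1r1) together with the accessory protein IL-1RAP (Il1rap), which leads to activation of NF-kB and to the transcription of inflammatory genes. IL-1β and IL-18 are made as precursors that caspase-1 cuts in inflammasomes, whereas IL-1α and IL-33 are held in cells and released when these are damaged. The system carries its own brakes, since the receptor antagonist (Il1rn) occupies IL-1 receptor 1 without signalling, IL-1 receptor 2 (Il1r2) is a decoy, and IL-18 binding protein (Il18bp) captures IL-18. IL-33 acts on ST2 (Il1rl1), which also pairs with IL-1RAP. In liver, macrophages are known sources of IL-1β and IL-18, and endothelial and stellate cells are known to store IL-33.

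Cells were assigned by the UMIs (unique molecules counted) of a few genes. The endothelial gate required at least 5 UMIs of Kdr, Ptprb and Egfl7 together, the stellate gate at least 5 of Reln, Colec11 and Lrat, the Kupffer gate at least 5 of Clec4f, and the monocyte gate at least 3 of Chil3, F13a1 and Vcan with at most 2 of Clec4f. Of the 25861 cells kept in all, the endothelial gate held 3085 and 2795 cells in CCl4 1 and CCl4 2, and 5287 and 5370 in corn oil 1 and corn oil 2. The stellate gate held 462 and 144 cells in CCl4, against 179 and 145 in corn oil. The Kupffer gate held 228 and 225 cells in CCl4, against 217 and 222 in corn oil. The monocyte gate held 911 and 1349 cells in CCl4, against 43 and 23 in corn oil. The kept cells of a mouse summed to 41771857 to 53784701 UMIs, and the median per cell was 6793 and 6036 in CCl4, against 5325 and 4441 in corn oil. Libraries shared 48 to 74 cell indexes in each pair, while the header of the CCl4 1 table carries an earlier analysis date than those of the other 3 mice, and whether runs differed cannot be told apart from that mouse. Levels are given as CPM, the UMIs of a gene scaled to 1000000 UMIs of the gate in that mouse.

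The gate names were checked against other markers. Of 8 further markers for each of the endothelial, stellate and Kupffer gates, none was at 0 in its own gate in any mouse. They summed to 8215 and 7862 CPM in CCl4 against 10037 and 9598 CPM in corn oil for endothelial cells, to 16775 and 13763 CPM in CCl4 against 23070 and 25397 CPM in corn oil for stellate cells, and to 23544 and 21386 CPM in CCl4 against 20645 and 19490 CPM in corn oil for Kupffer cells. The cells that passed the monocyte gate differed in kind between the groups. Ly6c2, the defining gene of classical monocytes, was found in 546 of 911 and 910 of 1349 of these cells in CCl4, against 6 of 43 and 2 of 23 in corn oil. The 8 Kupffer markers summed to 1086 and 1344 CPM in this gate in CCl4, against 4620 and 7099 CPM in corn oil. In corn oil 1, 9 of the 43 cells held at least 3 UMIs of the stromal gene Dcn, and stellate markers summed to 1927 CPM there, against 19.3 CPM in corn oil 2. The corn oil side of this gate is therefore referred to only by its gate, and the part of its Kupffer markers in the monocyte results was not tested. Leaving out the Dcn-bearing cells was tried after seeing the data, as was leaving out Lyz2-bearing cells.

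A further 549 and 283 cells in CCl4, and 630 and 883 in corn oil, met more than 1 gate and were dropped. Of these, 175 and 91 cells in CCl4, against 274 and 465 in corn oil, met the endothelial and Kupffer gates. Their median of 22496 and 20866 UMIs in CCl4, and 20076 and 18248 in corn oil, was far above that of all kept cells. No doublet caller was run, and these cells were used only where stated.

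Promoter sequences are shown for the neighbouring ligand genes Il1a and Il1b and for Il1rn, because the values below turn on these genes. Il1a (ENSMUSG00000027399.1) lies on chr2:129299610-129309972 and Il1b (ENSMUSG00000027398.13) on chr2:129364570-129371139, both on the minus strand of GRCm38 and 54.6 kb apart, and Il1rn (ENSMUSG00000026981.15) lies on chr2:24336853-24351494 on the plus strand. RefSeq gave an annotated start for all 10 genes (GRCm38.p6, 15 starts). The 250 bases before each start are written 5′ to 3′ along the gene, and capitals mark matches to any of the motifs searched on both strands, which were the TATA box TATAAA, the AP-1 motif TGANTCA, the C/EBP motif TTNCNNAA, the PU.1 motif GAGGAA and the NF-kB motif. The window before RefSeq start 3 of Il1rn overlaps that before start 2 and is not shown. The Il1rn window before start 2 lies within the gene as annotated from start 1.
Il1a, chr2:129309973-129310222, minus strand: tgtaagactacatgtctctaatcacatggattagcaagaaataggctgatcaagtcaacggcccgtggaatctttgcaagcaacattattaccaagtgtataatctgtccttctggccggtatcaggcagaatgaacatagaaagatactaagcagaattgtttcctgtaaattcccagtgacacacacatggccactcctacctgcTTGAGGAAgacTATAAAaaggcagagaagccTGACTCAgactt
Il1b, chr2:129371140-129371389, minus strand: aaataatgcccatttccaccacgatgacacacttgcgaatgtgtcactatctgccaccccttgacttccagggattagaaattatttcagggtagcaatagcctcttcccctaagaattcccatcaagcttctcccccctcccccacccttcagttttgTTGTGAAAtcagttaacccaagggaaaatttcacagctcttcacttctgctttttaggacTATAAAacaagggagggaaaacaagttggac
Il1rn start 1, chr2:24336610-24336859, plus strand: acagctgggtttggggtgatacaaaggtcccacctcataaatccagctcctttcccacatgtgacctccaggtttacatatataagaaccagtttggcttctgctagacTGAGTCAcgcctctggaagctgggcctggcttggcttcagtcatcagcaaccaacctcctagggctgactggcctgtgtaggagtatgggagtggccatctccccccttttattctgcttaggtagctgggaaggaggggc
Il1rn start 2, chr2:24345041-24345290, plus strand: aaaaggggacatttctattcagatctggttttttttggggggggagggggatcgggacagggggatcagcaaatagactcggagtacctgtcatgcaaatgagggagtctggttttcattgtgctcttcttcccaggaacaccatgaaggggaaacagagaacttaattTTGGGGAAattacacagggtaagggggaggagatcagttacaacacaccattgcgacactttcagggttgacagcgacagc

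Both ligand promoters held TATAAA close to the start, 32 bases before it in Il1a and 31 bases before it in Il1b. Of all 32817 mouse windows of this length, 12.4% held that motif. Il1a also held the AP-1 motif 12 bases before the start, found in 6.75% of all windows, and a C/EBP match 43 bases before it that overlaps a PU.1 match. Il1b had a C/EBP match 91 bases before its start. Il1rn start 1 held the AP-1 motif 141 bases before the start, and Il1rn start 2 held a C/EBP match 81 bases before it. The window before start 3 held 3 C/EBP matches and no other motif. None of the Il1rn windows held TATAAA. C/EBP matches occurred in 36.8% of all windows, PU.1 matches in 23.3% and NF-kB matches in 3.90%, and none of the 4 windows shown held the NF-kB motif. A match describes the letters of the window only, and which start was used is not known from these counts.

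Across the 4 gates, 33 of the 40 pairs of gene and gate had enough UMIs to be tested between CCl4 and corn oil. After CCl4, 9 pairs were higher, 3 were lower and 21 were not called. Testing used edgeR's quasi-likelihood test on UMIs summed per mouse, with Benjamini-Hochberg adjustment over all genes of the gate, and the threshold for a call was an adjusted p of 0.05. In the endothelial gate 4 of 9 tested members were called, all higher, where 5.42% of all 13388 genes tested were called (2.85% higher, 2.57% lower). In the stellate gate 1 of 6 was higher and 1 lower, against 10.2% of all 8978 genes called (5.29% higher, 4.91% lower). In the Kupffer gate 2 of 8 were higher and 1 lower, against 15.3% of all 9918 genes called (7.55% higher, 7.79% lower). Of members in the monocyte gate 2 of 10 were higher and 1 lower, against 5.47% of all 10191 genes called (2.4% higher, 3.06% lower). The median log2 fold change of the tested members was 0.94 in endothelial, 0.67 in stellate, -0.08 in Kupffer and -0.24 in monocyte gates, while the median over all genes lay between -0.01 and 0.04. An exact permutation test of 2 against 2 mice cannot give a two-sided p below 0.333, so the adjusted p-values rest on the spread shared across genes.

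**Figure D1:**
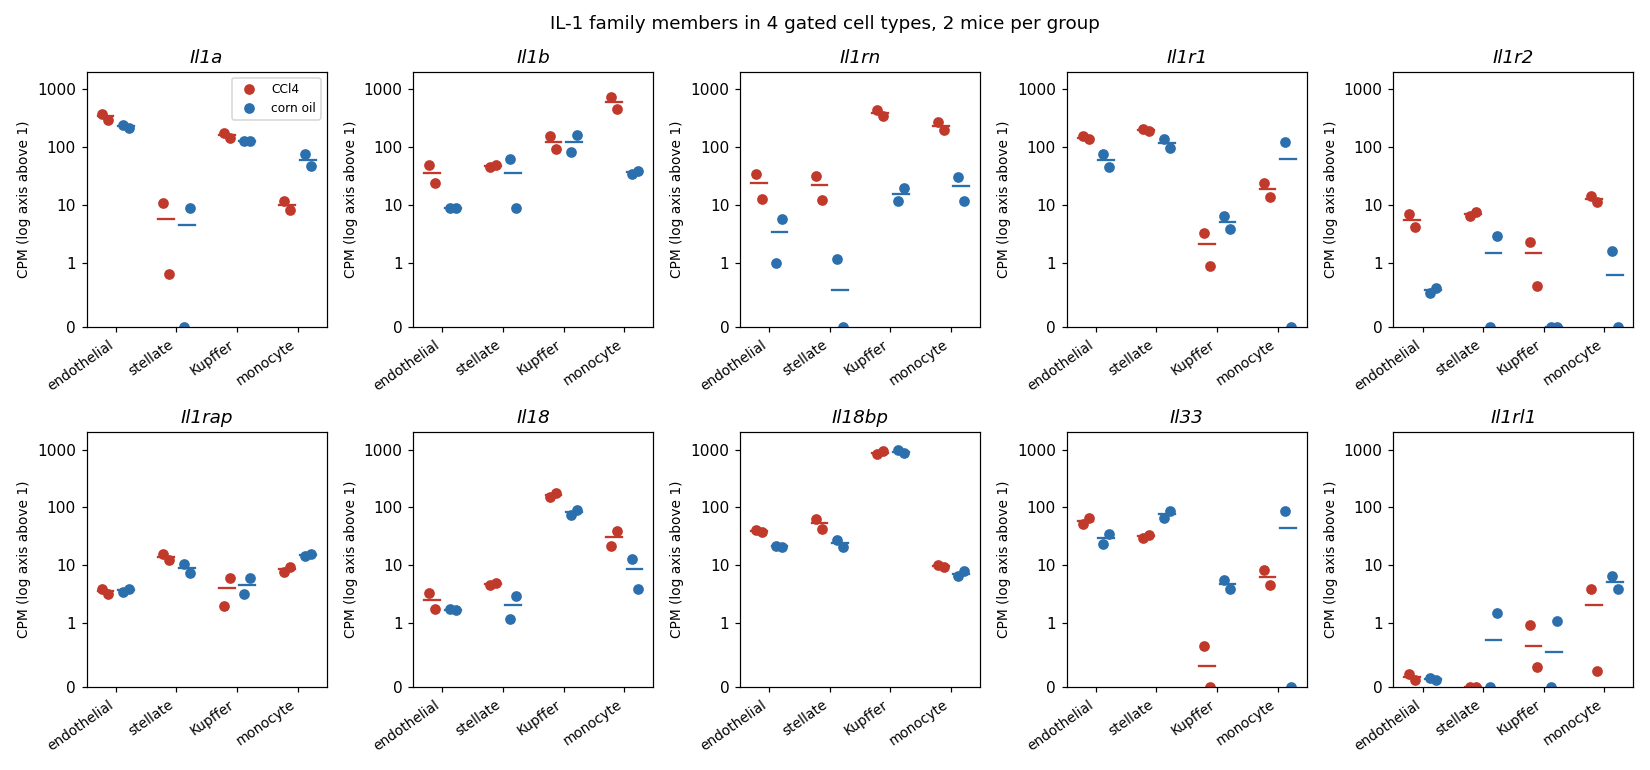
CPM of each of the 10 genes in the endothelial, stellate, Kupffer and monocyte gates, with 1 point per mouse, CCl4 in red left of corn oil in blue, and a bar at the mean of 2 mice (log axis above 1, linear below). Il1b in the monocyte gate and Il1rn in the Kupffer and monocyte gates stand apart between the groups, whereas Il18bp in Kupffer cells lies between 826 and 966 CPM in all 4 mice.

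Among the 4 gates, Il1b, the secreted ligand made mainly by myeloid cells, was most abundant in the monocyte gate after CCl4. Outside the gates, 10 neutrophils had 1373 CPM in CCl4, summed over both mice. The monocyte gate had 729 and 457 CPM of Il1b in CCl4, against 33.9 and 38.7 CPM in corn oil. The mean was 593 ± 192 CPM in CCl4 and 36.3 ± 3.39 CPM in corn oil (SD, n = 2 each). Both CCl4 mice lay far above both corn oil mice, and the rise was called (log2 3.98, SE 0.336, adjusted p = 0.00899). After every cell was thinned to 3000 UMIs, 58.3% and 46.1% of these cells kept an Il1b UMI in CCl4, against 12.1% and 12.1% in corn oil. Without thinning the shares were 66.5% and 54.3% in CCl4, against 16.3% and 21.7% in corn oil. The thinning left out 2 and 6 cells of CCl4 and 0 of corn oil. In T/NK cells, which should lack Il1b and had a median of 5092 and 4002 UMIs in CCl4 and 2916 and 2535 in corn oil, the thinned share was 1.83% and 1.54% in CCl4, and no T/NK cell of either corn oil mouse held an Il1b UMI, which allows a share of up to 1.71% and 1.36%. The 8 neutrophil markers moved with it in this gate, summing to 509 and 834 CPM in CCl4 with none at 0, against 37.1 and 50.3 CPM in corn oil with 6 of the 8 at 0 in each mouse. Without cells holding neutrophil genes the log2 value was 3.92 (adjusted p = 0.00798). The monocyte call held without Dcn-bearing cells (log2 3.63, adjusted p = 0.00015) and was lost without CCl4 1 (log2 3.62, adjusted p = 0.0791) and without CCl4 2 (log2 4.26, adjusted p = 0.0950).

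Kupffer cells, the resident macrophages, showed no such difference in Il1b. They had 152 and 92.4 CPM in CCl4, against 82.8 and 159 CPM in corn oil. The groups overlapped, with a mean of 122 ± 42.5 CPM in CCl4 and 121 ± 53.8 CPM in corn oil (SD, n = 2 each). The estimate was log2 -0.04 (SE 0.325, adjusted p = 0.950), and its sign turned under several alternatives. The difference of the CCl4 effect between Kupffer and monocyte gates was itself called (log2 -4.06, SE 0.679, adjusted p = 0.00257). Averaged over the 4 mice, no difference in Il1b level was called between these gates (Kupffer over monocyte log2 -0.22, SE 0.370, adjusted p = 0.724). On that average both stood above stellate cells (stellate over Kupffer log2 -1.69, adjusted p = 0.000739, and stellate over monocyte log2 -1.90, adjusted p = 0.00318). In corn oil alone the monocyte gate did not, since its 33.9 and 38.7 CPM lay between the 61.8 and 8.80 CPM of stellate cells. Endothelial cells were below stellate cells (log2 -1.18, adjusted p = 0.0116), a call lost without CCl4 2 (log2 -0.92, adjusted p = 0.121) and without corn oil 1 (log2 -0.09, adjusted p = 0.884).

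The endothelial gate also had more Il1b, at a lower level. It held 47.9 and 23.9 CPM in CCl4, against 8.63 and 8.73 CPM in corn oil, with no overlap, and the rise was called (log2 2.00, SE 0.338, adjusted p = 0.0251). Only a few cells carried it, namely 197 of 3085 and 97 of 2795 in CCl4, against 57 of 5287 and 47 of 5370 in corn oil. The thinned share of 3.98% and 2.21% in CCl4, against 0.689% and 0.635% in corn oil, compares in CCl4 with the 1.83% and 1.54% of T/NK cells, and T/NK cells had 6.93 and 38.7 CPM of Il1b in CCl4 against 0 CPM in corn oil. Lyz2, a gene of myeloid cells, had 353 and 191 CPM in this gate in CCl4, against 154 and 552 CPM in corn oil. Leaving out every endothelial cell with a Lyz2 UMI kept the call (log2 2.64, adjusted p = 0.0109), at 22.7 and 11.8 CPM in CCl4 against 2.42 and 3.02 CPM in corn oil. The part of myeloid RNA without Lyz2 was not tested.

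In stellate cells, the pericytes that turn into scar-forming myofibroblasts, Il1b was not called. It had 45.4 and 48.3 CPM in CCl4, against 61.8 and 8.80 CPM in corn oil (log2 0.31, SE 0.526, adjusted p = 0.764). Corn oil 1 lay above both CCl4 mice and corn oil 2 far below them, and without corn oil 1 the log2 value was 2.30 (adjusted p = 0.00053). In stellate cells with no Lyz2 UMI, Il1b stood at 13.8 and 30.3 CPM in CCl4, against 1.46 and 0 CPM in corn oil, and was called (log2 4.42, adjusted p = 0.0352) on 1 UMI in corn oil.

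Il1a, the damage-released ligand, had a different home. Endothelial cells held 376 and 299 CPM in CCl4, against 243 and 211 CPM in corn oil. The groups did not overlap, but the gene was not called (log2 0.52, SE 0.171, adjusted p = 0.129). Kupffer cells had 176 and 142 CPM in CCl4, against 127 and 128 CPM in corn oil, also not called (log2 0.25, SE 0.164, adjusted p = 0.324). The level averaged over the 4 mice ran in the order endothelial, Kupffer, monocyte and stellate. Each step was called (endothelial over Kupffer log2 0.87, adjusted p = 0.00173, Kupffer over monocyte log2 2.58, adjusted p = 6.07e-06, and stellate over monocyte log2 -2.32, adjusted p = 0.000783). The last step lay in corn oil, with 74.2 and 46.4 CPM in the monocyte gate against 0 and 8.80 CPM in stellate cells. In CCl4 these gates overlapped, at 11.5 and 8.00 CPM against 10.7 and 0.818 CPM. In the thinned cells, 54.0% and 49.9% of endothelial cells kept an Il1a UMI in CCl4, against 41.0% and 39.4% in corn oil, while 73.2% and 68.3% in CCl4 and 54.6% and 49.1% in corn oil held one before thinning. Of T/NK cells, 0 of 46 and 1 of 68 held one in CCl4, against 4 of 175 and 4 of 221 in corn oil.

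Il1a in the monocyte gate was lower after CCl4. It had 11.5 and 8.00 CPM in CCl4, against 74.2 and 46.4 CPM in corn oil (log2 -2.78, SE 0.350, adjusted p = 0.0157). The corn oil values rest on 46 and 12 UMIs, and the Kupffer markers, which were higher in the corn oil side of the gate as given above, moved with them. The call held without Dcn-bearing cells (log2 -3.21, adjusted p = 0.0012) and was lost without CCl4 1 (log2 -3.00, adjusted p = 0.142), without CCl4 2 (log2 -2.49, adjusted p = 0.211) and without corn oil 1 (log2 -2.34, adjusted p = 0.0539). Stellate cells held 42 and 1 UMIs of Il1a in CCl4, against 0 and 6 in corn oil, too few to test.

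Il1rn, which encodes the receptor antagonist, gave the largest called changes of the family. Kupffer cells had 435 and 340 CPM in CCl4, against 11.7 and 19.6 CPM in corn oil. With a mean of 388 ± 67.3 CPM in CCl4 and 15.6 ± 5.58 CPM in corn oil (SD, n = 2 each), the groups were far apart, and the rise (log2 4.59, SE 0.262, adjusted p = 5.72e-05) kept its call without any of the 4 mice in turn, with log2 values of 4.22 to 5.03. A UMI of Il1rn was kept by 45.0% and 40.1% of thinned Kupffer cells in CCl4, against 2.69% and 4.47% in corn oil. Before thinning one was present in 63.6% and 62.2% of cells in CCl4 and 9.22% and 10.4% in corn oil. Cells that met both the Kupffer and the endothelial gates, which were not part of this test, had 332 and 262 CPM of Il1rn in CCl4, against 15.8 and 13.9 CPM in corn oil. With these cells added to the Kupffer gate the log2 value was 4.51 (adjusted p = 0.000795).

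Cells of the monocyte gate carried Il1rn as well. They had 276 and 194 CPM in CCl4, against 30.7 and 11.6 CPM in corn oil, and the rise was called (log2 3.22, SE 0.393, adjusted p = 0.0151). The call held without cells holding neutrophil genes, whose markers are given with Il1b above (log2 3.21, adjusted p = 0.0151), and without Dcn-bearing cells (log2 2.80, adjusted p = 0.00173), and was lost without CCl4 1 (log2 3.02, adjusted p = 0.137) and without CCl4 2 (log2 3.49, adjusted p = 0.117). The difference of the effect between Kupffer and monocyte gates was not called (log2 1.62, SE 0.861, adjusted p = 0.247), nor was the difference in average level (log2 -0.03, SE 0.403, adjusted p = 0.989). Of thinned monocyte-gate cells 27.6% and 20.4% kept an Il1rn UMI in CCl4, against 5.58% and 3.98% in corn oil, while T/NK cells gave 2.95% and 1.43% in CCl4 and none in corn oil.

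Stellate and endothelial cells held less Il1rn. Stellate cells had 31.7 and 12.3 CPM in CCl4, against 1.14 and 0 CPM in corn oil, which was called (log2 5.02, SE 0.989, adjusted p = 0.0151). It rests on 1 UMI in corn oil against 140 in CCl4, a ratio of 42.2 with a 95% counting interval of 7.45 to 1678 for these sums, and the call was lost without CCl4 1 (log2 3.98, adjusted p = 0.322). Of those 140 UMIs, 5 and 4 were in cells with no Lyz2 UMI (2.16 and 5.05 CPM in CCl4, against 0 and 0 CPM in corn oil), so the stellate signal lay mostly in cells that also held a myeloid transcript. Endothelial cells had 34.1 and 12.8 CPM in CCl4, against 0.988 and 5.71 CPM in corn oil, not called (log2 2.78, SE 0.775, adjusted p = 0.0879), and without corn oil 2 the same gene was called (log2 4.52, adjusted p = 0.00414). Without Lyz2-bearing cells the endothelial values were 6.94 and 3.21 CPM in CCl4, against 0.742 and 0.0464 CPM in corn oil, and the gene was not called (log2 3.58, adjusted p = 0.0506). On average endothelial cells were below Kupffer cells (log2 -3.37, adjusted p = 2.46e-06), and no difference was called from stellate cells (endothelial over stellate log2 1.12, adjusted p = 0.412).

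The antagonist was also set against the ligand in the same cells. In Kupffer cells, for every 100 UMIs of Il1b there were 286 and 368 UMIs of Il1rn in CCl4, against 14.1 and 12.3 in corn oil. For monocyte-gate cells the same quantity was 37.9 and 42.4 in CCl4, against 90.5 and 30.0 in corn oil, where it rests on 19 and 3 UMIs of Il1rn, and the groups overlapped. These ratios compare mice and not the abundance of the 2 transcripts, and no test was made. In CCl4, 70 of 112 and 59 of 86 Kupffer cells with Il1b also held Il1rn, against 11 of 75 and 16 of 99 in corn oil, at a median depth of 13571 and 14622 UMIs in CCl4 and 8689 and 7502 UMIs in corn oil.

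**Figure D2:**
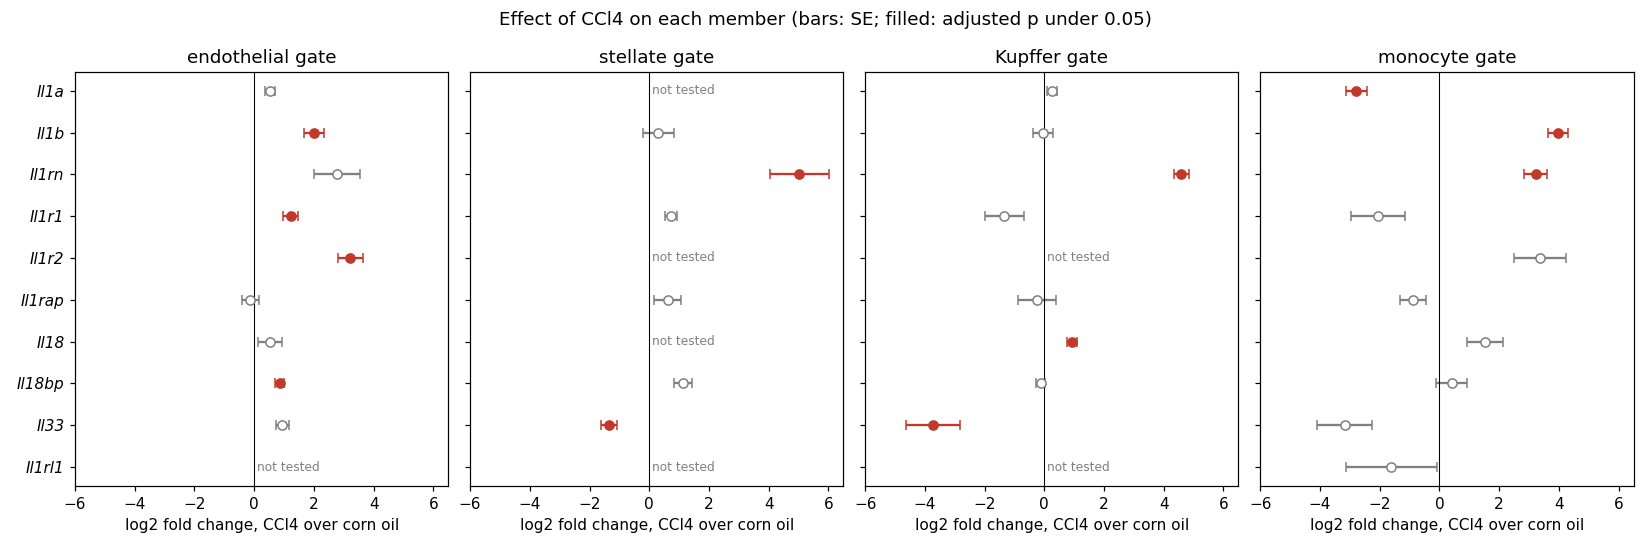
Log2 fold change of CCl4 over corn oil for each gene (rows) in each gate (panels), with bars of 1 SE and filled points where the adjusted p was under 0.05. Il1rn stands to the right of 0 in all 4 gates, at 2.78, 5.02, 4.59 and 3.22, and is filled in 3 of them, while Il33 stands at 0.94 in endothelial cells and at -1.35 in stellate cells.

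Among the 4 gates, the signalling receptor Il1r1 was highest in stellate and endothelial cells. Outside them, mesothelial cells had 476 CPM in CCl4 and 252 CPM in corn oil on 5 and 11 cells, and fibroblasts 188 CPM in CCl4 and 92.6 CPM in corn oil on 49 and 16 cells, summed over both mice. Endothelial cells had 153 and 139 CPM in CCl4, against 75.7 and 44.5 CPM in corn oil. Both CCl4 mice were higher and the rise was called (log2 1.22, SE 0.249, adjusted p = 0.0430), but not without CCl4 1 (log2 1.09, adjusted p = 0.190) or without CCl4 2 (log2 1.32, adjusted p = 0.0892). In this gate the 8 stellate markers summed to 346 and 430 CPM in CCl4, against 173 and 205 CPM in corn oil, and the 6 fibroblast markers to 146 and 169 CPM in CCl4, against 67.8 and 57.9 CPM in corn oil, with none at 0. Without endothelial cells holding another gate's genes the log2 value was 1.23 (adjusted p = 0.0307), and the part of fibroblast markers was not tested. Stellate cells had 205 and 192 CPM in CCl4, against 138 and 95.3 CPM in corn oil, with no overlap and no call (log2 0.72, SE 0.205, adjusted p = 0.0598), although it was called without corn oil 1 (log2 0.96, adjusted p = 0.0114). No difference of the change was called between them (endothelial over stellate log2 0.44, SE 0.478, adjusted p = 0.767). After thinning, 33.4% and 31.0% of endothelial cells kept an Il1r1 UMI in CCl4, against 18.4% and 11.5% in corn oil. For stellate cells 42.6% and 42.1% did so in CCl4, against 32.9% and 23.1% in corn oil. Before thinning the endothelial shares were 57.0% and 51.3% in CCl4, against 29.0% and 16.9% in corn oil. The thinning left out 1 and 4 endothelial cells in CCl4 and 215 and 731 in corn oil. T/NK cells with an Il1r1 UMI numbered 0 of 46 and 4 of 68 in CCl4, against 0 of 175 and 2 of 221 in corn oil.

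Kupffer cells had very little of the receptor, 3.20 and 0.946 CPM in CCl4 against 6.30 and 3.81 CPM in corn oil (log2 -1.34, SE 0.651, adjusted p = 0.192). The monocyte gate had 24.2 and 13.5 CPM in CCl4, against 123 and 0 CPM in corn oil. All 76 Il1r1 UMIs of corn oil 1 in this gate lay in its 9 Dcn-bearing cells, and in CCl4 127 of 132 and 93 of 106 did. The monocyte estimate (log2 -2.06, SE 0.912, adjusted p = 0.234) turned to 9.40 without corn oil 1 (adjusted p = 0.185) and was called lower without corn oil 2 (log2 -2.75, adjusted p = 0.00789). On average the level was higher in stellate than in endothelial cells (endothelial over stellate log2 -0.63, SE 0.240, adjusted p = 0.0450), a call that was lost without CCl4 1 (adjusted p = 0.174) and without CCl4 2 (adjusted p = 0.190), and endothelial cells were above Kupffer cells by log2 4.79 (adjusted p = 1.43e-07).

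The accessory protein gene Il1rap was called in none of the 4 gates by edgeR or DESeq2, nor at an unadjusted p under 0.05. Stellate cells had 15.2 and 12.3 CPM in CCl4, against 10.3 and 7.33 CPM in corn oil, without overlap (log2 0.61, SE 0.452, adjusted p = 0.442). Endothelial cells had 3.87 and 3.12 CPM in CCl4, against 3.46 and 3.89 CPM in corn oil (log2 -0.13, SE 0.288, adjusted p = 0.844). In average level among the 4 gates, stellate and monocyte gates stood highest, with no difference called between them (stellate over monocyte log2 -0.09, adjusted p = 0.891). Kupffer and endothelial cells followed, again with none called (endothelial over Kupffer log2 -0.30, adjusted p = 0.445). The monocyte gate had 7.69 and 9.14 CPM in CCl4, below stellate cells, and 14.5 and 15.5 CPM in corn oil on 9 and 4 UMIs. Outside the gates, fibroblasts had 38.0 CPM in CCl4 and 30.9 CPM in corn oil on 15 and 2 UMIs, summed over both mice. Stellate cells were above Kupffer cells (log2 1.29, adjusted p = 0.0139), a call lost without CCl4 1 (log2 0.87, adjusted p = 0.146) and without corn oil 1 (log2 0.91, adjusted p = 0.219). Both chains of the signalling receptor were seen together in 39 of 462 and 9 of 144 stellate cells in CCl4, against 5 of 179 and 2 of 145 in corn oil, and in 46 of 3085 and 27 of 2795 endothelial cells in CCl4, against 31 of 5287 and 11 of 5370 in corn oil. These counts were not thinned and follow depth, which was higher in CCl4.

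The decoy receptor Il1r2 was higher in endothelial cells after CCl4 at a very low level. It had 6.92 and 4.05 CPM in CCl4, against 0.527 and 0.605 CPM in corn oil (log2 3.22, SE 0.419, adjusted p = 0.0122), and the call was lost without CCl4 1 (log2 2.72, adjusted p = 0.0612). A UMI was found in 3.63% and 2.15% of endothelial cells in CCl4, against 0.208% and 0.149% in corn oil. In T/NK cells the share was 4.35% and 1.47% in CCl4, where 2 of 46 and 1 of 68 cells held one, and 0 in corn oil. These shares were not thinned, and on so few T/NK cells the endothelial share in CCl4 could not be told apart from theirs. The neutrophil marker list moved in the same direction in the endothelial gate, with 67.7 and 60.9 CPM over 8 genes in CCl4 against 5.90 and 15.7 CPM in corn oil, and their part in the result was not tested. The 10 neutrophils found, all in CCl4, had 186 and 406 CPM of Il1r2.

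Elsewhere Il1r2 rested on few UMIs. The monocyte gate had 14.1 and 11.2 CPM in CCl4, against 1.61 and 0 CPM in corn oil (log2 3.37, SE 0.867, adjusted p = 0.0896), with 165 UMIs in CCl4 and 1 in corn oil, a ratio of 10.9 with a counting interval of 1.92 to 432, and it was called without the Dcn-bearing cells (log2 8.41, adjusted p = 0.0426). The neutrophil markers of this gate moved in the same direction, and without cells holding neutrophil genes the log2 value was 3.07 (adjusted p = 0.113). Stellate cells had 25 and 9 UMIs in CCl4, against 0 and 2 in corn oil, a ratio of 5.12 (1.31 to 44.0). Kupffer cells had 7 and 2 UMIs in CCl4 and none in corn oil, at least 1.93-fold higher against a floor of 3 counts over the group. Intervals and floors cover counting error only.

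Il18 and its inhibitor Il18bp were highest in Kupffer cells among the 4 gates. Outside them, mesothelial cells had 98.5 CPM of Il18 in CCl4 and 94.6 CPM in corn oil on 5 and 11 cells. The 10 neutrophils of CCl4 had 108 CPM of Il18 on 6 UMIs. Il18 had 152 and 173 CPM in Kupffer cells in CCl4, against 73.3 and 89.2 CPM in corn oil. Both CCl4 mice were higher, and the rise was called (log2 0.94, SE 0.170, adjusted p = 0.00859), although not without CCl4 2 (log2 0.87, adjusted p = 0.0629). Thinned Kupffer cells kept an Il18 UMI in 32.2% and 36.1% in CCl4, against 19.6% and 20.7% in corn oil. Before thinning 68.0% and 74.7% in CCl4 and 44.2% and 40.1% in corn oil held one. In the monocyte gate Il18 had 21.6 and 38.4 CPM in CCl4, against 12.9 and 3.87 CPM in corn oil, not called (log2 1.52, SE 0.605, adjusted p = 0.199). Endothelial cells had 1.66 to 3.29 CPM in the 4 mice and were not called (log2 0.53, adjusted p = 0.502). Stellate cells had 18 and 6 UMIs in CCl4, against 1 and 2 in corn oil, a ratio of 2.41 with a counting interval of 0.732 to 12.5.

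Il18bp stayed within its spread in Kupffer cells, at 826 and 933 CPM in CCl4, against 966 and 872 CPM in corn oil (log2 -0.13, SE 0.144, adjusted p = 0.595). The groups overlapped, and 80.7% and 83.6% of thinned Kupffer cells carried it in CCl4, against 88.1% and 85.0% in corn oil. For every 100 UMIs of Il18 there were 544 and 539 UMIs of Il18bp in CCl4, against 1317 and 977 in corn oil, a comparison of mice with no test. Endothelial cells had 41.1 and 37.7 CPM of Il18bp in CCl4, against 21.1 and 20.7 CPM in corn oil, and here the rise was called (log2 0.86, SE 0.145, adjusted p = 0.0251), but not without CCl4 1 (log2 0.74, adjusted p = 0.166) or without CCl4 2 (log2 0.95, adjusted p = 0.0604). The 8 Kupffer markers were higher in the endothelial gate too, at 416 and 274 CPM in CCl4, against 148 and 217 CPM in corn oil, with none at 0. Without endothelial cells holding another gate's genes the log2 value of Il18bp was 0.87 (adjusted p = 0.0275), and it was 0.87 without Lyz2-bearing cells (adjusted p = 0.0226). Stellate cells had 63.7 and 42.6 CPM in CCl4, against 27.5 and 20.5 CPM in corn oil, not called (log2 1.13, SE 0.310, adjusted p = 0.0523) but called without corn oil 1 (log2 1.31, adjusted p = 0.0187). The monocyte gate had 9.88 and 9.27 CPM in CCl4, against 6.46 and 7.74 CPM in corn oil (log2 0.41, adjusted p = 0.679).

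In level, Il18bp was highest in Kupffer cells. Kupffer cells were above the monocyte gate by log2 6.86 (SE 0.174, adjusted p = 1.14e-10), and endothelial and stellate cells lay between them with no difference called (endothelial over stellate log2 -0.27, adjusted p = 0.154). Il18 ran in the order Kupffer, monocyte, then stellate and endothelial together (Kupffer over monocyte log2 2.75, adjusted p = 1.20e-05; endothelial over stellate log2 -0.48, adjusted p = 0.608), although the step from monocyte to stellate gates was not called without corn oil 1 (stellate over monocyte log2 -1.66, adjusted p = 0.463). Il18bp (ENSMUSG00000070427.4, chr7:102014885-102018690, minus strand) overlaps Numa1 on the other strand, and Il18 (ENSMUSG00000039217.13, chr9:50554827-50581840, plus strand) overlaps Bco2 and Tex12 on the other strand. The sources used here do not say whether counting kept to the strand, so reads of such partners cannot be told apart, and the same holds for Il1a with Gm14023 and Il1b with Il1bos.

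Il33, the nuclear ligand of ST2, was found in stromal cells inside and outside the 4 gates. Outside them, fibroblasts had 63.4 CPM in CCl4 and 170 CPM in corn oil on 49 and 16 cells, summed over both mice. Mesothelial cells had 65.7 CPM in CCl4 and 78.9 CPM in corn oil on 5 and 11 cells. Stellate cells had 28.9 and 33.6 CPM in CCl4, against 66.4 and 86.5 CPM in corn oil. Both CCl4 mice were lower, and the fall was called (log2 -1.35, SE 0.252, adjusted p = 0.0118), though not without CCl4 1 (log2 -1.22, adjusted p = 0.199) or without CCl4 2 (log2 -1.41, adjusted p = 0.0902). The 8 endothelial markers were lower in the stellate gate as well, at 127 and 109 CPM in CCl4 (1 of 8 at 0 in CCl4 2), against 330 and 311 CPM in corn oil (none at 0), as were the stellate markers given above. Without stellate cells holding another gate's genes the log2 value was -1.51 (adjusted p = 0.0339). Endothelial cells had 50.9 and 65.3 CPM in CCl4, against 23.3 and 34.8 CPM in corn oil, higher in both mice but not called (log2 0.94, SE 0.220, adjusted p = 0.0605). It was called by DESeq2 (log2 0.93, adjusted p = 0.0029), with no filter on low counts (log2 0.93, adjusted p = 1.19e-05), with the replicate block (log2 0.96, adjusted p = 0.00235), without corn oil 2 (log2 1.26, adjusted p = 0.00956) and without Lyz2-bearing cells (log2 1.01, adjusted p = 0.0470). The difference of effect between the endothelial and stellate gates was log2 2.23 (SE 0.634) and was not called (adjusted p = 0.137). No difference in average level was called between these gates (endothelial over stellate log2 -0.18, SE 0.316, adjusted p = 0.676), and both were above Kupffer cells (endothelial over Kupffer log2 4.95, adjusted p = 6.99e-06; stellate over Kupffer log2 5.12, adjusted p = 1.48e-05).

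The shares of cells were read after thinning. Thinned stellate cells kept an Il33 UMI in 5.74% and 8.79% in CCl4, against 14.9% and 22.0% in corn oil. Thinned endothelial cells did so in 12.5% and 15.9% in CCl4, against 5.58% and 8.78% in corn oil. Before thinning the stellate shares were 11.0% and 19.4% in CCl4, against 20.7% and 26.9% in corn oil. No T/NK cell held an Il33 UMI, which allows shares of up to 6.52% and 4.41% in CCl4 and 1.71% and 1.36% in corn oil. Kupffer cells had 2 and 0 UMIs of Il33 in CCl4, against 12 and 7 in corn oil. They were called lower on these counts (log2 -3.74, SE 0.898, adjusted p = 0.0244), a ratio of 0.0679 with a counting interval of 0.00767 to 0.281. Endothelial and stellate markers were also lower in the Kupffer gate in CCl4, at 476 and 522 CPM in CCl4 against 707 and 638 CPM in corn oil for endothelial markers and 191 and 97.8 CPM in CCl4 against 386 and 417 CPM in corn oil for stellate markers, and their part was not tested. The Kupffer call was lost without CCl4 1 (log2 -6.53, adjusted p = 0.0842), without CCl4 2 (log2 -2.79, adjusted p = 0.225), by DESeq2 (log2 -3.91, adjusted p = 0.0782) and with cells of both gates added (log2 -0.93, adjusted p = 0.0818). Il33 in the monocyte gate had 8.05 and 4.57 CPM in CCl4, against 87.1 and 0 CPM in corn oil (log2 -3.18, SE 0.929, adjusted p = 0.115), and all 54 UMIs of corn oil 1 lay in the Dcn-bearing cells. Without corn oil 1 the log2 value was 7.82 (adjusted p = 0.356), and without corn oil 2 it was -3.84 and called (adjusted p = 0.00318).

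Its receptor Il1rl1 was nearly absent from the 4 gates. The endothelial gate held 5 and 2 UMIs in CCl4 and 4 and 3 in corn oil, the stellate gate 0 and 0 in CCl4 and 0 and 1 in corn oil, and the Kupffer gate 3 and 1 in CCl4 and 0 and 2 in corn oil. The monocyte gate held 21 and 2 UMIs in CCl4, against 4 and 1 in corn oil; it was tested without a call (log2 -1.61, SE 1.52, adjusted p = 0.554). T/NK cells outside the gates held 26 and 2 UMIs in CCl4, against 1 and 0 in corn oil, so CCl4 1 held most of those.

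Levels between gates were tested in a joint fit of the 16 sums with each mouse as a block, in which all 10 members differed between gates, as did 78.8% of all 12629 genes. By pair, 4 of 10 members differed between endothelial and stellate gates (50.2% of all genes), 8 between endothelial and Kupffer (60.8%), 9 between endothelial and monocyte (55.1%), 9 between stellate and Kupffer (56%), 8 between stellate and monocyte (48%) and 6 between Kupffer and monocyte (31%). The CCl4 effect differed between gates for Il1a, Il1b, Il1r1, Il18bp and Il33, which is 5 of 10 against 16.6% of all genes. Pairwise, no member was called between endothelial and stellate gates (0.942% of all genes called), endothelial and Kupffer gates (2.52%) or stellate and Kupffer gates (0.784%), by edgeR, with lowest adjusted p-values of 0.137, 0.0505 and 0.0736. At an unadjusted p under 0.05 there were 2, 5 and 1 such members, and DESeq2 was not run on these pairs. All pairwise calls involved the monocyte gate, with 3 against endothelial (11.8%), 3 against stellate (12.9%) and 2 against Kupffer (14.2%).

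**Figure D3:**
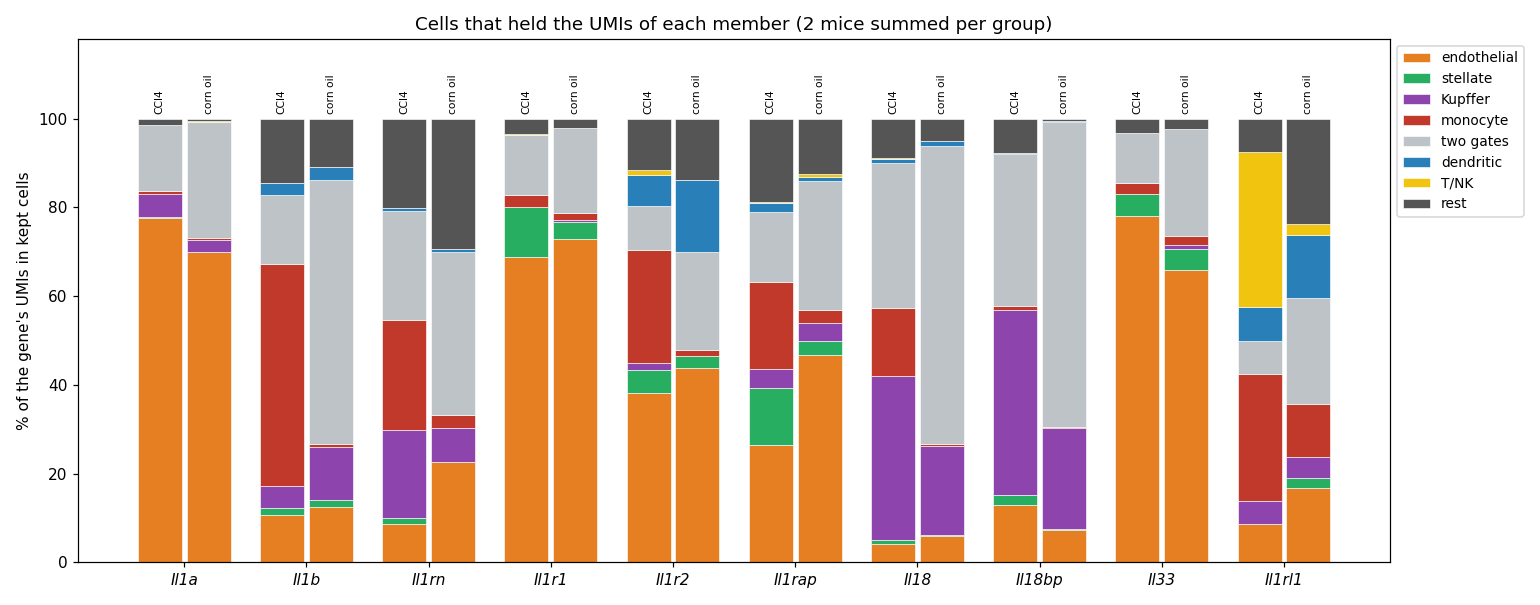
Share of all UMIs of each gene, summed over 2 mice of a group, that lay in each kind of cell, with CCl4 left of corn oil (percent of the gene's UMIs in kept cells; light grey is cells that met more than 1 gate, dark grey all other cells). In CCl4 the monocyte gate held 49.9% of Il1b, and in corn oil cells that met more than 1 gate held 59.3% of Il1b and 68.9% of Il18bp.

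Over all kept cells of a mouse, Il1b had 173 and 141 CPM in CCl4, against 37.4 and 46.2 CPM in corn oil, and Il1rn 143 and 109 CPM in CCl4, against 5.81 and 11.1 CPM in corn oil. Il1a overlapped between groups, at 225 and 170 CPM in CCl4 against 207 and 185 CPM in corn oil. The source of Il1b differed, since the monocyte gate held 49.9% of its 15193 UMIs in CCl4 and 0.783% of its 3959 UMIs in corn oil. Il1rn was spread wider in CCl4, with 24.8% in the monocyte gate, 19.9% in the Kupffer gate, 24.5% in cells that met more than 1 gate and 18.7% in cells of no gate or further class. Endothelial cells held most Il1a in both groups, 77.5% in CCl4 and 69.9% in corn oil, and most Il33, 78.2% in CCl4 and 66.0% in corn oil. The endothelial gate also held 68.8% of Il1r1 in CCl4, against 72.9% in corn oil, while the stellate gate held 11.2% in CCl4, against 3.90% in corn oil. These shares follow the number of cells of each kind that were captured and were not tested.

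Of 10 symbols listed for further family ligands, 4 are in the tables, and only Il1f9, which encodes IL-36γ, had enough UMIs to be tested, in endothelial cells. Endothelial cells had 3.62 and 1.56 CPM of Il1f9 in CCl4, against 0.0988 and 0.113 CPM in corn oil (log2 4.52, SE 0.669, adjusted p = 0.0180). The corn oil values lie near the floor, since 4 UMIs give 0.132 CPM in corn oil 1 and 3 UMIs give 0.113 CPM in corn oil 2. Neutrophil markers moved in the same direction in this gate, as given with Il1r2 above, and their part was not tested. Of 6 further receptors, Il18r1, Il1rl2 and Sigirr were tested in endothelial cells and Il1rl2 in Kupffer cells, and none was called by edgeR or DESeq2, nor had any an unadjusted p under 0.05. Il18r1, the receptor for IL-18, had 1.19 and 0.831 CPM in endothelial cells in CCl4, against 1.42 and 1.06 CPM in corn oil.

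For the machinery that matures and releases IL-1β and IL-18, 20 genes were listed, and 3 of 17 tested were called in endothelial cells (5.42% of all genes), 1 of 9 in stellate cells (10.2%), 4 of 18 in Kupffer cells (15.3%) and 3 of 18 in the monocyte gate (5.47%). At an unadjusted p under 0.05 there were 8, 1, 9 and 7, and DESeq2 called 5, 1, 3 and 4. In endothelial cells Ninj1, which ruptures the membrane of dying cells, was higher (36.4 and 34.7 CPM in CCl4, against 16.7 and 15.4 CPM in corn oil; log2 1.09, adjusted p = 0.0137). P2rx7, the ATP-gated channel that triggers the inflammasome, was lower there (17.2 and 21.8 CPM in CCl4, against 41.7 and 52.9 CPM in corn oil; log2 -1.34, adjusted p = 0.0137). Txnip, a thioredoxin-binding protein linked to the inflammasome, was lower in endothelial (log2 -1.17, adjusted p = 0.0117), stellate (log2 -1.21, adjusted p = 0.00634) and Kupffer cells (log2 -1.57, adjusted p = 0.00257). In Kupffer cells the adaptor Pycard was higher (log2 0.88, adjusted p = 0.0108) and Casp4 (log2 -0.83, adjusted p = 0.0386) and the pore-forming Gsdmd (log2 -0.80, adjusted p = 0.0117) were lower. The monocyte gate had the sensor Nlrp3 higher at 142 and 152 CPM in CCl4 against 27.4 and 54.2 CPM in corn oil (log2 1.91, adjusted p = 0.0293), Gsdmd higher (log2 1.28, adjusted p = 0.0346) and Pycard lower (log2 -1.26, adjusted p = 0.0272). The few cells on the corn oil side of that gate held more Kupffer markers, as given above, and their part was not tested. The median log2 value of the list was -0.25, -0.22, -0.40 and 0.13 in the endothelial, stellate, Kupffer and monocyte gates.

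Of 21 listed genes of the pathway below the receptor, edgeR called 0 of 21 tested in endothelial cells (5.42% of all genes), 2 of 19 in stellate cells (10.2%), 1 of 21 in Kupffer cells (15.3%) and 0 of 20 in the monocyte gate (5.47%). The median log2 value of the list was -0.0059, 0.12, -0.06 and 0.39 in these gates, beside medians over all genes of -0.01 to 0.04. In stellate cells the kinase Irak2 was higher (37.3 and 30.3 CPM in CCl4, against 5.72 and 13.2 CPM in corn oil; log2 1.86, SE 0.433, adjusted p = 0.0288), and Map2k6, a kinase upstream of p38, was lower (log2 -2.44, SE 0.621, adjusted p = 0.0402). Irak4 was lower in Kupffer cells (log2 -0.60, SE 0.170, adjusted p = 0.0444). At an unadjusted p under 0.05 there were 2 in endothelial cells, 3 in stellate cells, 5 in Kupffer cells and 7 in the monocyte gate, and DESeq2 called 1 in each of those gates and none in stellate or Kupffer cells.

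**Figure D4:**
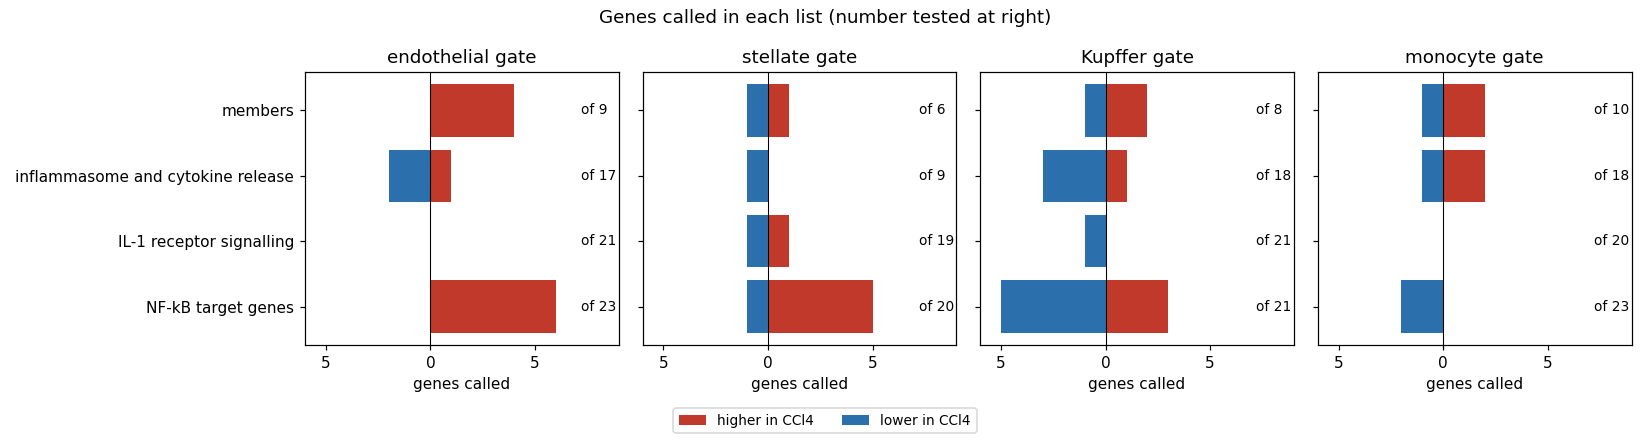
Number of genes called higher in CCl4 (red, right of 0) and lower in CCl4 (blue, left of 0) in each list and gate, with the number tested at the right. NF-kB target genes were called higher in endothelial (6 of 23, where 2.85% of all genes were) and stellate cells (5 of 20, where 5.29% were), while in Kupffer cells 3 were higher and 5 lower of 21 (7.55% higher and 7.79% lower of all genes).

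Known NF-kB target genes, which many signals besides IL-1 also induce, formed the longest list. In endothelial cells 6 of 23 tested were higher (2.85% of all genes) and 0 lower (2.57%). Ptgs2, the prostaglandin-forming enzyme COX-2, had 6.05 and 3.84 CPM in CCl4, against 0.626 and 0.567 CPM in corn oil (log2 2.99, adjusted p = 0.0128). The adhesion receptor Sele had 63.6 and 27.6 CPM in CCl4, against 9.32 and 5.86 CPM in corn oil (log2 2.54, adjusted p = 0.0264), and the monocyte attractant Ccl2 had 78.9 and 34.1 CPM in CCl4, against 10.6 and 9.76 CPM in corn oil (log2 2.43, adjusted p = 0.0235). Lcn2, an iron-binding acute-phase gene, was higher too (log2 2.59, adjusted p = 0.0348). Neutrophil and Kupffer markers were also higher in the endothelial gate in CCl4, as given with Il1r2 and Il18bp above. Their part in the rises of these target genes was not tested.

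In stellate cells 5 of 20 were higher (5.29% of all genes) and 1 lower (4.91%). Saa3, an acute-phase gene, had 287 and 219 CPM in CCl4, against 1.14 and 0 CPM in corn oil (log2 8.44, SE 0.486, adjusted p = 0.000104). The corn oil side of Saa3 rests on 1 UMI, so the size of this change is poorly fixed. Ptgs2 (log2 3.28, adjusted p = 0.0226), Lcn2 (log2 3.13, adjusted p = 0.0451) and Ccl2 (log2 1.54, adjusted p = 0.0205) were also higher. In Kupffer cells 3 of 21 were higher (7.55% of all genes) and 5 lower (7.79%). The chemokines Ccl7 (log2 2.51, adjusted p = 0.0021) and Ccl2 (log2 1.49, adjusted p = 0.00176) rose, while Nfkbie, an NF-kB inhibitor (log2 -1.33, adjusted p = 0.0149), and Birc3, an inhibitor of cell death (log2 -1.30, adjusted p = 0.0103), fell. In the monocyte gate 0 of 23 were higher (2.4% of all genes) and 2 lower (3.06%), with 7 at an unadjusted p under 0.05 and 4 called by DESeq2. The lower genes were Il6 (log2 -4.00, adjusted p = 0.0412) and Saa3, which had 725 and 489 CPM in CCl4 against 7191 and 3846 CPM in corn oil (log2 -3.25, adjusted p = 0.0141). The corn oil side of this gate held 43 and 23 cells, with more Kupffer markers than in CCl4 and, in corn oil 1, Dcn-bearing cells. Their part in these falls was not tested. Of 8 type 2 genes known to act below IL-33, Gata3 alone was tested, in endothelial cells (0.618 and 0.519 CPM in CCl4, against 1.45 and 1.36 CPM in corn oil; log2 -1.35, adjusted p = 0.113), with an unadjusted p under 0.05 and no call by DESeq2.

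The genes whose levels ran most alike over the 16 sums are a description, since the sums share libraries and gates. Il1r1 was closest to Tmem263 (Pearson r 0.985), Serpinh1 (0.977) and Grb10 (0.977), and Il33 to Tmem263, Npdc1 and Il1r1 (0.946 each). Il18 was closest to Ntpcr (0.970), Siglec1 (0.964) and Tmem268 (0.959), and Il18bp to Paqr9 (0.959), Ccl17 (0.952) and Rnf103 (0.942). Il1b was closest to Ifi209 (0.932), Oas3 (0.913) and Ms4a6c (0.913), Il1a to Snx24 (0.935), Snap29 (0.934) and Wbp2 (0.932), and Il1rn to Slc25a5 (0.937), Hnrnpf (0.936) and Gtf2f2 (0.928). Il1r2 was closest to Fosl1 (0.895), the neutrophil gene Retnlg (0.862) and Sdad1 (0.849), and Il1rap to Plp2 (0.872), Ptprs (0.861) and Plppr3 (0.851). Il1rl1 had too few UMIs for this comparison.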

How the data were processed

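Per the file headers, the authors deposited counts of unique molecules (UMIs) per cell and gene from the BD WTA Rhapsody Analysis Pipeline 1.9.1 on GRCm38 with GENCODE vM19. Which aligner was used is not stated in them. A minimum of 200 genes and a maximum of 25% mitochondrial UMIs kept 25861 of 27091 cells, and cells that met more than 1 gate were dropped without a doublet caller. UMIs were summed per mouse and gate, filtered with filterByExpr, scaled by TMM and tested with edgeR 4.0.16 (quasi-likelihood, limma 3.58.1, R 4.3.3), with Benjamini-Hochberg adjustment. The joint fit of 16 sums had mouse, gate and gate by treatment. No source says more of each replicate than that it is a separate mouse. The tests therefore took the mouse as the unit, with 2 mice a group, and the p-values rest on the spread shared across genes. Shares used cells thinned to 3000 UMIs. The scripts were tested on simulated data. Alternatives, among them DESeq2 1.42.0, are given at the end. Named were all members in each gate, at most 4 called genes of largest change per list and gate, and the 3 genes most alike per member with at least 50 UMIs; Gata3, Il18r1 and the receptors beside it were named after their values were seen. The members, gates and lists were chosen with earlier results of these data known. Positions are from GENCODE vM21 and promoters from RefSeq GRCm38.p6.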

Additional observations from a re-analysis of the deposited data

Results flagged for a closer look

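In contrasts of 1 gate with another, the CCl4 effect differed for 4 genes by a test of the difference itself, in each case against the monocyte gate, whose corn oil side held 43 and 23 cells. For Il1a the log2 difference was 3.21 for endothelial over monocyte gates (SE 0.528, adjusted p = 0.00276), 3.62 for stellate over monocyte (SE 0.926, adjusted p = 0.0240) and 3.0 for Kupffer over monocyte (SE 0.538, adjusted p = 0.00365). Without corn oil 1 these were 2.88, 2.05 and 2.56 and not called (adjusted p = 0.0631, 0.322 and 0.0685), and the stellate one was not called without CCl4 1 (0.73) or CCl4 2 (3.93, adjusted p = 0.0536) either. For Il1b it was -3.77 for stellate over monocyte (SE 0.808, adjusted p = 0.0103), with no call without CCl4 1 (-3.34, adjusted p = 0.110), CCl4 2 (-4.04, adjusted p = 0.0575) or corn oil 1 (-1.55, adjusted p = 0.457). For Il1b it was -4.06 for Kupffer over monocyte (SE 0.679, adjusted p = 0.00257), and that call held without each mouse in turn.

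Il1r1 and Il33 also differed, at log2 3.11 for Il1r1 between endothelial and monocyte gates (SE 0.584, adjusted p = 0.00574), 2.67 for Il1r1 between stellate and monocyte gates (SE 0.608, adjusted p = 0.0140) and 4.17 for Il33 between endothelial and monocyte gates (SE 0.779, adjusted p = 0.00561). All UMIs of these genes on the corn oil side of the monocyte gate came from 9 Dcn-bearing cells of corn oil 1. Without corn oil 1 the differences turned to -8.64, -9.22 and -8.04, and none was called without CCl4 1 or CCl4 2.

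Cells outside the 4 gates held signal above corn oil. Dendritic cells had 88 UMIs of Il1rn in CCl4 (60 and 28), against 1 and 5 in corn oil, and 32 UMIs of Il18bp in CCl4 (13 and 19), against 3 and 3 in corn oil. T/NK cells had 28 UMIs of Il1rl1 in CCl4 (26 and 2), against 1 and 0 in corn oil, with 46 and 68 such cells in CCl4 and 175 and 221 in corn oil.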

How the results depend on the processing

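Counts of called genes depended on the setting. They were 726, 916, 1522 and 557 in the endothelial, stellate, Kupffer and monocyte gates, 2302, 1577, 2321 and 2061 without the filter on low counts, and 1482, 609, 873 and 903 by DESeq2. Leaving out 1 mouse gave 183 to 894, 107 to 1345, 585 to 1464 and 0 to 1658, with the lone mouse assumed to vary like the other group. In the monocyte gate edgeR called 0 genes without CCl4 1 or CCl4 2, where 711 and 697 genes had an unadjusted p under 0.05 and DESeq2 was not run. Without cells holding another gate's genes there were 551 in stellate and 804 in Kupffer cells. Chosen after seeing the data, leaving out Dcn-bearing cells gave 1025 in the monocyte gate. Of 9953 genes differing in level between gates, 7880 to 9474 were called without 1 mouse; of 2100 with a differing CCl4 effect, 261 to 2144, and 3549 with no filter. DESeq2 for levels was not run, nor the doubled gate minimum in the monocyte gate and joint fits, where the smallest gate held 17 cells.

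Among member calls of the CCl4 effect, 28 held and 18 were lost with 1 mouse left out, and 86 held and 2 were lost (Kupffer Il33) under the other alternatives. The sign of uncalled members turned to -0.11 for endothelial Il18 without Lyz2-bearing cells, to 0.036, 0.033 and 0.37 for Kupffer Il1b with no filter, at most 15% mitochondrial UMIs and no other gate's genes, to 0.010 for Kupffer Il1rap at most 15% mitochondrial, to -0.044, 0.028 and 0.13 for Kupffer Il1a, Il1b and Il18bp with the added endothelial and Kupffer cells, and to -0.020 for monocyte Il18bp without Dcn-bearing cells. With 1 mouse left out, log2 values ran from -0.095 to 0.94 for endothelial Il18, -0.35 to 0.054 for endothelial Il1rap, -0.40 to 2.30 for stellate Il1b, -1.24 to 0.33 for Kupffer Il1rap, -0.47 to 0.55 for Kupffer Il1b, -2.75 to 9.40 for monocyte Il1r1 and -3.84 to 7.82 for monocyte Il33. Differences of effect ran from -8.64 to 3.51 for Il1r1 and -8.04 to 4.96 for Il33 between endothelial and monocyte gates, and -9.22 to 3.20 for Il1r1 between stellate and monocyte gates. Levels of Kupffer over monocyte ran from -3.73 to 2.47 for Il1r1 and -5.84 to 1.95 for Il33. Beyond what is given for single mice, the cause was not tested.

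With the replicate block, 2051, 973, 1893 and 374 genes were called in the 4 gates, and endothelial Il1a (log2 0.51, adjusted p = 0.0208), Il1rn (2.84, adjusted p = 0.0278) and Il33 (0.96, adjusted p = 0.00235) and stellate Il1r1 (0.73, adjusted p = 0.0435) and Il18bp (1.11, adjusted p = 0.0403) were called as well. Whether the shared numbers pair the mice cannot be told from 2 mice a group. The correlation of their deviations over genes was 0.075, -0.003, 0.087 and 0.157 in the 4 gates, which rests on 2 pairs.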

Other observations

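Neutrophils were too few for a comparison, with 7 and 3 cells in CCl4 and none in corn oil. Those cells had 1162 and 2113 CPM of Il1b, 441 and 244 CPM of Il1rn, and 186 and 406 CPM of Il1r2, the last from 8 and 5 UMIs. Cells that met both the endothelial and the Kupffer gates had 126 and 69.9 CPM of Il1b in CCl4, against 102 and 108 CPM in corn oil, and 104 and 102 CPM of Il18 in CCl4, against 56.7 and 54.4 CPM in corn oil. Their Il18bp stood at 512 and 584 CPM in CCl4, against 663 and 479 CPM in corn oil, and their Il1a at 233 and 186 CPM in CCl4, against 199 and 205 CPM in corn oil.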
